A study of Mus musculus with 36 samples.

Results

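The centromere-proximal ends of the mouse autosomes were taken as the 100 kb windows from 3.0 to 6.0 Mb of chromosomes 1 to 19 on the GRCm38 (mm10) assembly, which gave 30 windows per chromosome and 570 windows of the 24048 windows of these chromosomes beyond 3.0 Mb. The 3800 windows from 10 to 30 Mb of the same chromosomes served as the comparison region. Windows were chosen by position alone, so none of the lesion counts took part in the choice. Maps of single-strand breaks (SSBs, from the SSiNGLe assay) and of apurinic or apyrimidinic sites (AP sites, from SSiNGLe-AP) were read at single-nucleotide resolution, each from 12 libraries: 2 of bone marrow, 2 of brain, 2 of heart, 2 of liver, 2 of peripheral blood mononuclear cells (PBMCs) and 2 of sperm. All DNA came from 2 male C57BL/6J mice aged 24 months with no genetic change or treatment named, so that the 12 libraries of an assay are not 12 animals, and the SSB and AP libraries of one tissue and replicate number were made from one DNA sample. Red blood cells had been lysed in the bone marrow, PBMCs had been separated on Ficoll, and sperm had been collected as motile cells from the epididymal tail. Sperm DNA was purified with another kit than the DNA of all other tissues, so that the kit and the cell type cannot be told apart. These maps hold no transcript levels, and the tissue labels were therefore not checked against marker genes.

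Mouse chromosomes are telocentric: the centromere lies at one end of each chromosome, in long arrays of satellite repeats that the assembly represents as a gap, and the first sequenced DNA follows directly after. The DNA next to the centromere is known for duplicated gene families and for regions that the cell packs as heterochromatin. An SSB is a nick in one strand of the double helix, and an AP site is a sugar that has lost its base; base excision repair passes through both, since an AP site is cut to a nick before the gap is filled. The files were checked against the label of the ends by the empty part of the assembly. Of all autosomal positions in the 24 libraries, 1 lay below 3.0 Mb, at the last base before the boundary.

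An SSB library held 220728 to 1021522 autosomal positions and an AP library 452686 to 946961, and a position was counted once however many reads it had. The ends held 5025 to 22988 of these positions per SSB library and 10350 to 21579 per AP library. As a share of autosomal positions this was 1.96% at the lowest, 2.23% at the median and 2.39% at the highest for SSBs, and 2.21%, 2.26% and 2.29% for AP sites. The replicates of a tissue shared at most 0.400% of their nucleotides, so neither was a copy of the other.

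Each library's mean number of positions per end window was divided by its mean per comparison window, which removes the depth of the library. The SSB ratio was 0.918 at the lowest, 1.08 at the median and 1.18 at the highest of the 12 libraries, and it exceeded 1 in 10 of 12. For AP sites the ratio was 1.03, 1.08 and 1.12, above 1 in 12 of 12. On the log2 scale the mean was 0.10 ± 0.10 (SD, n = 12) for SSBs and 0.11 ± 0.03 for AP sites, with p = 0.00830 and p = 0.000488 by the two-sided exact sign-flip permutation test, the latter the smallest p that 12 libraries allow. The SSB and AP ratios differed by -0.02 on the log2 scale (SSB minus AP, p = 0.471, exact permutation of assay labels within tissues). These pooled values rested on few places. Against the region from 30 to 50 Mb both signs turned, to -0.07 for SSBs and -0.05 for AP sites. The mean of the chromosomes' own log2 ratios was also below 0, at -0.07 and -0.04. Each chromosome has the same number of windows in the pooled values too. This mean is taken on the log2 scale, where chromosome 14 lay at -2.15 (SSB) and -2.05 (AP). The median of the chromosomes' ratios was above 1, at 1.09 for SSBs and 1.11 for AP sites.

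A single 100 kb window carried most of the pooled excess. The window chr11:3100001-3200000, most of which is taken by Sfi1, the gene of a centrin-binding protein of the centrosome and spindle pole, held 1176 PPM (positions per 1000000 autosomal positions of the library) at the lowest, 1384 at the median and 1495 at the highest SSB library. In the AP libraries it held 1184, 1401 and 1616 PPM. All 24 libraries were thus far above the median end window, by 39.9-fold for SSBs and 40.3-fold for AP sites on the group means, and the next densest end window held 149.6 (SSB) and 131.4 (AP) PPM. This window alone supplied 6.13% ± 0.33 (SD, n = 12) of the SSB positions of the ends and 6.17% ± 0.58 of the AP positions. No comparison window reached 5 times the median. Without it the SSB log2 ratio was 0.01 ± 0.10 (p = 0.798, exact sign-flip permutation test) and the AP ratio 0.02 ± 0.03 (p = 0.0146, 10 of 12 above 0). These are net values over denser and sparser ends. They keep the end of chromosome 14, whose ratio to its own comparison region was 0.225 for SSBs and 0.242 for AP sites.

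Within this window the positions were not spread evenly. The first 20 kb held 6 SSB and 8 AP positions over all libraries, whereas the 5 kb beginning 40 kb into the window held 864 and 1609. Recurrence, the share of positions seen at the same nucleotide and strand in another library of the assay, was 23.3% ± 2.1 (SD, n = 12) for SSBs and 46.5% ± 2.8 for AP sites in this window. In all end windows together it was 2.64% ± 0.25 and 5.85% ± 0.44, against 0.951% ± 0.093 and 2.78% ± 0.19 in the comparison region. Both differences passed the exact sign-flip permutation test (adjusted p = 0.000977), and both did so with the Sfi1 window left out, at 1.29% for SSBs and 3.17% for AP sites (adjusted p = 0.00146, exact sign-flip permutation test, in 12 of 12 libraries each). Recurrence rises with the density of positions and with the depth of the libraries, and it was not adjusted for either. A shared nucleotide also counts in each library that holds it, so the libraries are not independent here. Positions with a count above 1 were 0.608% of the SSB positions of the ends and 0.475% of those in the comparison region, a difference that was called (adjusted p = 0.00439, exact sign-flip permutation test) and that was lost without the Sfi1 window (adjusted p = 0.451). For AP sites the shares were 0.759% and 0.441%, higher in the ends in 12 of 12 libraries (adjusted p = 0.000977, exact sign-flip permutation test). Without the Sfi1 window the AP share of the ends was 0.492%, still called, in 10 of 12 libraries (adjusted p = 0.00781, exact sign-flip permutation test). The share on the plus strand was 50.4% for SSBs and 51.1% for AP sites, and its difference from the comparison region was not called. The number of copies of this sequence in the genomes of these mice was not measured.

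Whole-gene density was also highest here. Sfi1 (chr11:3131850-3203347, 71498 bp) had 283 to 1116 SSB positions per library and 544 to 1340 AP positions, or 16.6 ± 1.3 and 17.3 ± 1.7 LPKM (positions per kilobase of gene per 1000000 positions of the library, SD, n = 12). Genes in the ends had a median of 0.549 LPKM for SSBs and 0.591 for AP sites. The order of tissues in the Sfi1 window was not the same for both lesions. Both sperm libraries were lowest of the SSB libraries (1176 and 1206 PPM) and highest of the AP libraries (1584 and 1616 PPM). Bone marrow was lowest for AP sites (1184 and 1191 PPM), and its SSB libraries held 1471 and 1474. Neither assay passed the edgeR quasi-likelihood test across tissues for this window (adjusted p = 0.135 for SSBs and 0.999 for AP sites).

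A promoter table from RefSeq on GRCm38.p6 covered 684 of the 1293 genes that lie wholly within the ends, with 873 promoters of 300 bases (250 before and 50 after the gene's start). Sequences of 4 of them are shown because their counts mark the extremes, and they were chosen after their values had been seen. Gm33862, a predicted gene inside the Sfi1 window, had the most SSB and AP positions of any promoter in the ends. Znrd2, which encodes a small zinc-ribbon protein, was next for SSBs, and Kmt5c (a histone H4 lysine methyltransferase) and Tfb1m (a methyltransferase of mitochondrial ribosomal RNA) had SSBs and no AP site. The 250 bases before each start are printed 5′ to 3′ on the strand of the gene, with each CG dinucleotide in capitals.
Gm33862, chr11:3136826-3137075, plus strand: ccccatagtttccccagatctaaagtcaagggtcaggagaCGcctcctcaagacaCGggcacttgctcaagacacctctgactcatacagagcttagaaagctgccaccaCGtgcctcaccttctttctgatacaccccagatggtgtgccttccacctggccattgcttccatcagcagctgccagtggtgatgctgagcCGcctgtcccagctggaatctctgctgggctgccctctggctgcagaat
Znrd2, chr19:5731733-5731982, minus strand: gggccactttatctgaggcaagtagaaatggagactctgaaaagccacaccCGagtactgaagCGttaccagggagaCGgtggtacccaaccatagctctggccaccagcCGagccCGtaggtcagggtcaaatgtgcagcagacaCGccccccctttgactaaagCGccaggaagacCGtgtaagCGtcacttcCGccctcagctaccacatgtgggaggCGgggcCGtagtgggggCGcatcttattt
Kmt5c, chr7:4739877-4740126, plus strand: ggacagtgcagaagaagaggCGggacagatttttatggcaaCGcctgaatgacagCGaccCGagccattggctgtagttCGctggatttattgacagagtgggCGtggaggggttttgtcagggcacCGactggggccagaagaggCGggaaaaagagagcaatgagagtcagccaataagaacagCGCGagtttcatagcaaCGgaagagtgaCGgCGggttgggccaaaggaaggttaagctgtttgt
Tfb1m, chr17:3557756-3558005, minus strand: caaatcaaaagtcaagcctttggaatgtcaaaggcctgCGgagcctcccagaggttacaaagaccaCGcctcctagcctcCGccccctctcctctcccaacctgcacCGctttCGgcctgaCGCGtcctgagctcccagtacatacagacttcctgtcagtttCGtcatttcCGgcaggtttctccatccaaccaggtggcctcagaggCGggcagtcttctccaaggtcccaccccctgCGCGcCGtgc
The 300 bases of the Gm33862 promoter held 56 SSB positions from 11 of 12 libraries and 156 AP positions from 12 of 12. The Znrd2 promoter had 12 SSB positions from 8 libraries and 3 AP positions from 2 libraries. The Kmt5c promoter had 11 SSB positions from 6 libraries and 0 AP positions, and the Tfb1m promoter 11 SSB positions from 5 libraries and 0 AP positions. The median promoter of the ends had 2 positions per assay over all 12 libraries, and 15 promoters reached 10 SSB positions against 5 that reached 10 AP positions. Of the 4087 promoters of the comparison region, 35 reached 10 SSB positions and 13 reached 10 AP positions. Overlapping promoters were counted separately in these numbers, although they share positions. Printed windows hold 4 CG dinucleotides for Gm33862 and 13 for each of the other 3. A match of CG on one strand is a match on the other strand too. At 10 or more CG in 300 bases, 48.5% of the promoters of the ends were CG-rich, against 44.0% of all autosomal promoters in the table.

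SSBs were denser at promoters than beside them. Each promoter base was counted once and compared with the bases within 5000 bp on either side that lie in no promoter. The SSB density of promoters over flanks was 1.26 at the lowest, 2.20 at the median and 3.08 at the highest of 12 libraries, and above 1 in 12 of 12 (mean log2 1.01 ± 0.38, adjusted p = 0.000533, exact sign-flip permutation test). For AP sites it was 1.22, 1.61 and 1.76, above 1 in 12 of 12 (0.65 ± 0.16, same adjusted p). The SSB value exceeded the AP value in 10 of 12 DNA samples, by 0.35 on the log2 scale (adjusted p = 0.00637, exact permutation within tissues). CG content split this difference. At CG-rich promoters SSB exceeded AP by 0.65 in 11 of 12 DNA samples (adjusted p = 0.00637, exact permutation), and at the other promoters the difference was -0.11, which was not called (p = 0.108, exact permutation). The contrast of the 2 promoter classes differed between the assays by 0.76 (p = 0.00141, exact permutation; 0.66 and p = 0.00343 without the Sfi1 window). Promoters of the comparison region gave a mean log2 of 1.05 for SSBs and 0.63 for AP sites, and the ends differed from them by -0.04 and 0.03, neither of which was called (adjusted p = 0.383, exact sign-flip permutation test). The promoter pattern was therefore not shown to be particular to the ends.

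**Figure D1:**
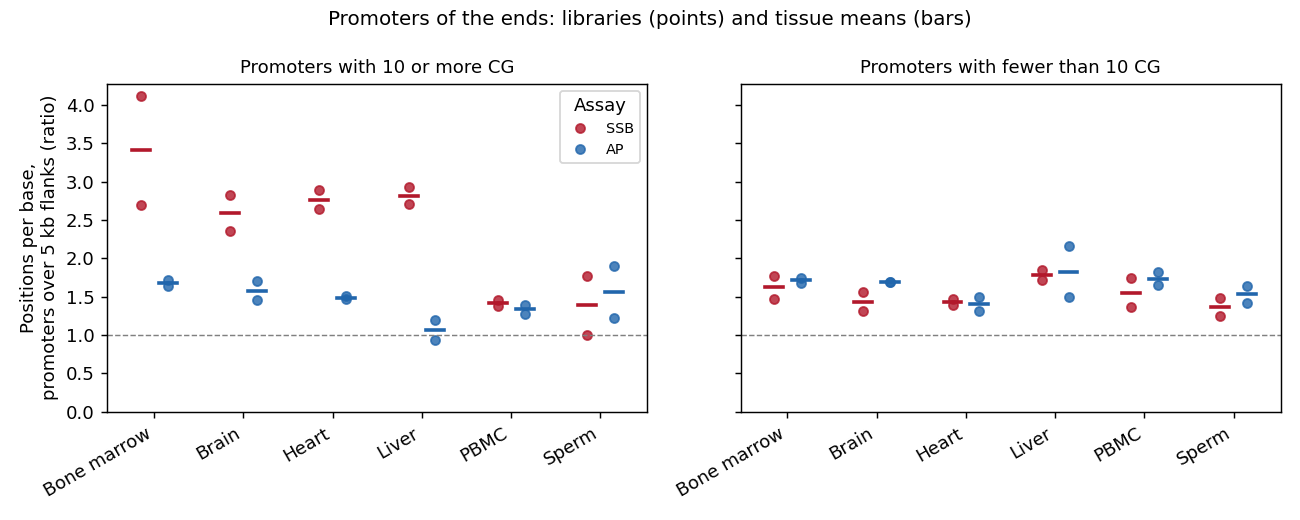
Positions per base at promoters of the ends over the 5 kb flanks (ratio, vertical axis), by tissue, for promoters with 10 or more CG dinucleotides (left) and with fewer (right); points are libraries, bars are the means of the 2 libraries, SSBs in red and AP sites in blue. At CG-rich promoters both SSB libraries of bone marrow, brain, heart and liver lie above their AP libraries, whereas in PBMCs and sperm the 2 assays overlap, and at the other promoters they overlap in every tissue but brain.

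The promoter excess of SSBs also varied with tissue (F = 14.2, p = 0.00443, exact permutation over every pairing of the 12 libraries). Over all promoters of the ends the bone marrow libraries stood at 3.08 and 2.44, and the sperm libraries at 1.26 and 1.55. Neither pair stood apart from all other tissues. The PBMC libraries, at 1.60 and 1.42, overlapped sperm, and the liver libraries, at 2.40 and 2.44, reached the lower bone marrow value. The AP values did not pass this test (F = 0.845, p = 0.539, exact permutation).

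Chromosomes differed far more than libraries did. For SSBs the ends of 11 chromosomes were denser than their own comparison region and those of 6 were sparser, with 2 not called (chromosomes 7 and 15), and for AP sites 13 were denser and 6 sparser (adjusted p under 0.05 over 38 tests, exact sign-flip permutation tests). These tests measure the spread between libraries only. How often other blocks of this size would be called was not tested, so the counts are not shown to be particular to the ends. Within the comparison region the mean over chromosomes ran by distance from 25.8 to 53.3 PPM for SSBs and from 25.5 to 52.1 for AP sites. The sparser ends were those of chromosomes 1, 3, 8, 9, 13 and 14 with both assays. Between chromosomes the SD of the log2 ratio was 0.79 for both assays, while within a chromosome the median SD between libraries was 0.12 for SSBs and 0.07 for AP sites. At the low end stood chromosome 14, with a ratio of 0.225 for SSBs (0.189 to 0.268 over 12 libraries) and 0.242 for AP sites (0.205 to 0.276). Chromosome 9 followed with 0.449 and 0.424. At the high end stood chromosome 11, with 3.20 for SSBs and 3.23 for AP sites, which fell to 1.82 and 1.81 without the Sfi1 window and stayed the highest of all chromosomes. Chromosome 19, whose end has 4.60 protein-coding genes per window, came next with 1.60 and 1.43.

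**Figure D2:**
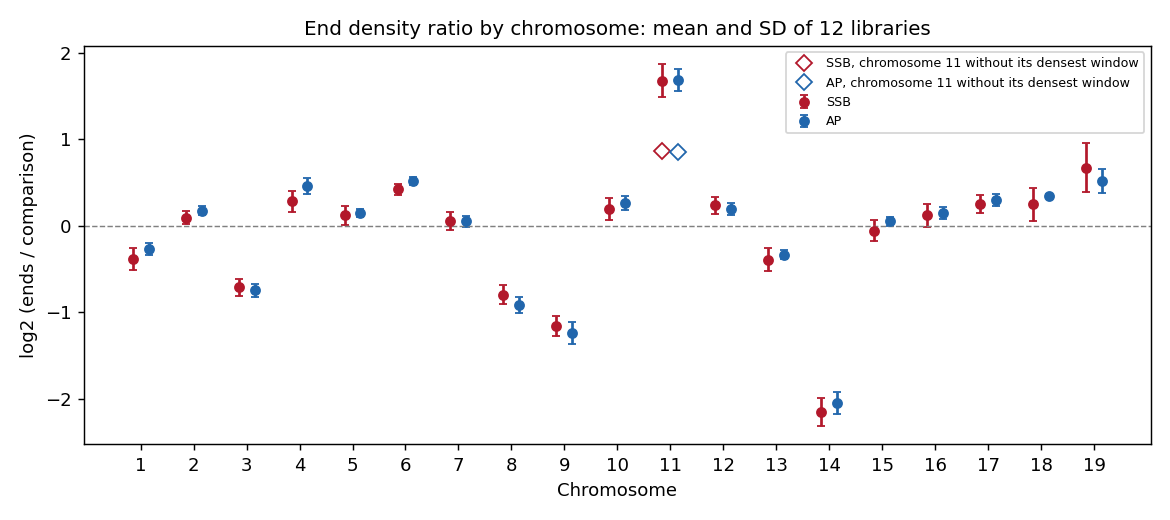
Log2 ratio of positions per window, ends over the comparison region of the same chromosome (vertical axis), for chromosomes 1 to 19; filled points are means of 12 libraries with SD bars, SSBs in red and AP sites in blue, and open diamonds give chromosome 11 without its densest window. Points of both assays move together, from -2.15 (SSB) and -2.05 (AP) at chromosome 14 to 1.68 and 1.69 at chromosome 11, and 6 chromosomes lie below 0 with both assays.

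On chromosome 14 the low density ran through most of the end. Of its 30 windows, 17 held under 10 SSB PPM and 14 held under 10 AP PPM, with medians of 9.58 and 11.5. Over all ends 44 windows for SSBs and 48 for AP sites were under this limit, or 7.72% and 8.42%, against 5.08% and 5.63% of the comparison windows. Protein-coding genes were not missing there: 45 lie wholly within this end. Of these, 42 (93.3%) carry only a numbered predicted name beginning with Gm, against 17 of 559 (3.04%) in the ends of the other 18 chromosomes. Whether these genes are near-identical copies, between which reads cannot be divided with certainty, was not examined. Densities of single genes on this end are therefore uncertain.

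The profile with distance showed no steady gradient. In the first 100 kb (3.0 to 3.1 Mb) no position was found on chromosomes 10 and 11 in any library, 4 positions in all were found on chromosome 16 and 11 on chromosome 19. Chromosome 17 was the opposite, with 149.6 ± 33.3 SSB and 131.4 ± 16.1 AP PPM (SD, n = 12) in its first window, the second densest end window for both assays. Assembly gaps were not checked, so the empty and sparse first windows may hold little sequence. They were kept in the means of the ends and in the counts of sparse windows. From 3 to 4 Mb the ratio to the comparison region was 1.14 for SSBs and 1.17 for AP sites, and without the Sfi1 window it was 0.951 and 0.970 (adjusted p = 0.0535 and 0.00488, exact sign-flip permutation test). From 4 to 5 Mb it was 1.03 and 1.04, and from 5 to 6 Mb 1.03 and 1.04. The AP ratios were called in both of these bins (adjusted p = 0.00146 and 0.00195, exact sign-flip permutation test), and the SSB ratios in neither (adjusted p = 0.161 and 0.121). Annotated genes covered 45.6%, 51.1% and 47.9% of the 3 bins in turn, and the part of gene content in these ratios was not tested.

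**Figure D3:**
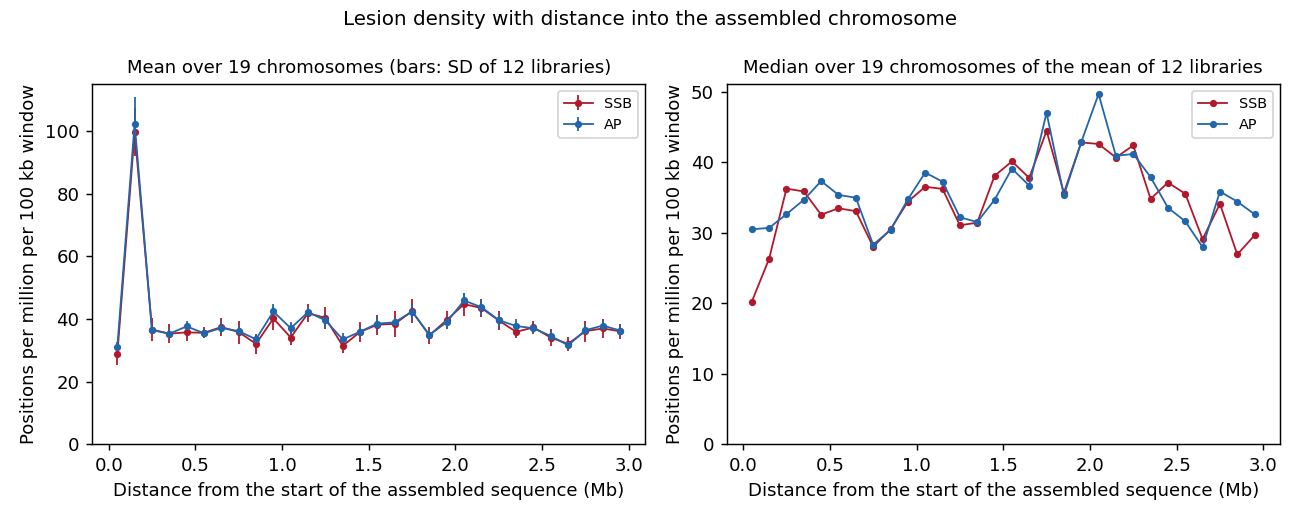
PPM, positions per 1000000 of the library, per 100 kb window (vertical axis) against distance in Mb from the start of the assembled sequence (horizontal axis); the left panel gives the mean over 19 chromosomes with the SD of 12 libraries as bars, the right panel the median over the 19 chromosomes. Both assays show 1 peak, at 99.7 (SSB) and 102.4 (AP) PPM in the second window of the mean, and it is absent from the medians, where the first window stands at 20.2 for SSBs and 30.5 for AP sites.

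SSB ratios differed between tissues and AP ratios did not show such a difference. Bone marrow stood highest for SSBs, with ratios of 1.18 and 1.16 in its 2 libraries. The PBMC libraries had 1.10 and 1.10, the liver libraries 1.08 and 1.09, the heart libraries 1.06 and 1.08, and the brain libraries 1.06 and 1.05. Sperm stood apart at the low end, with 0.918 and 0.976, the only SSB libraries below 1. Neither the bone marrow pair nor the sperm pair overlapped any other tissue. The difference across the 6 tissues passed the exact permutation test over every pairing of the 12 libraries (F = 24.3, p = 0.000289), and without the Sfi1 window (F = 18.2, p = 0.00154). For AP sites the sperm libraries had 1.10 and 1.08, inside the range of the other tissues. Of the bone marrow AP libraries, replicate 1 was the highest of the 12, at 1.12, and replicate 2 stood among the others at 1.08. The difference across tissues was not called for AP sites (F = 0.399, p = 0.852, exact permutation over the same pairings).

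**Figure D4:**
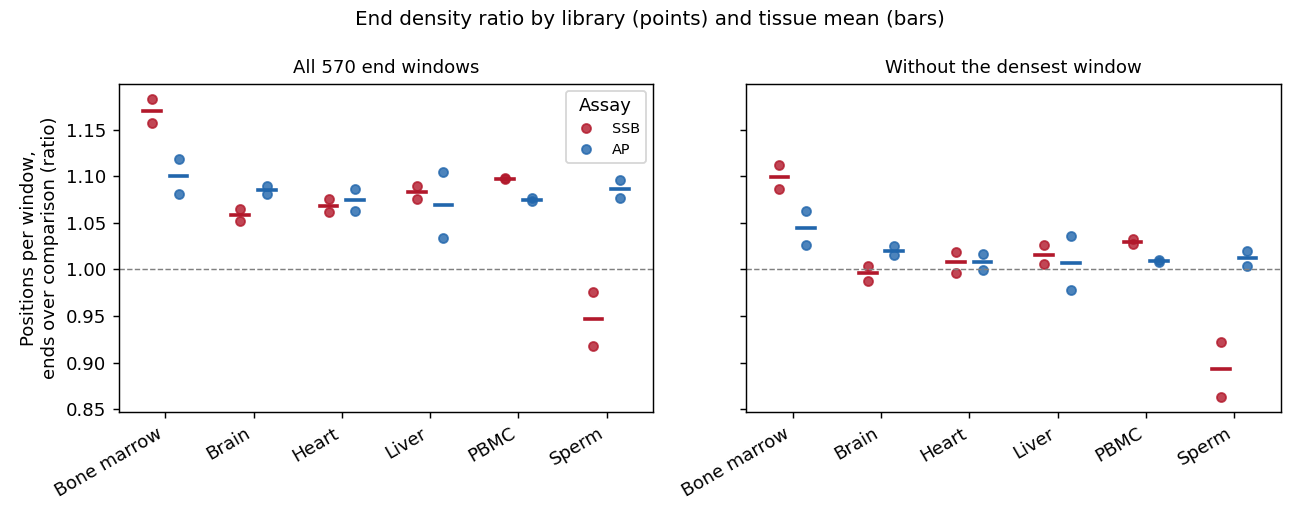
Ratio of positions per window, ends over comparison (vertical axis, not starting at 0), by tissue, with all 570 end windows (left) and without the densest window (right); points are libraries, bars are means of the 2 libraries, SSBs in red and AP sites in blue. The bone marrow SSB libraries are the 2 highest points in both panels and the sperm SSB libraries the 2 lowest, while the AP libraries of all tissues lie between 1.03 and 1.12 in the left panel.

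The assays were then set against each other within each DNA sample. The SSB minus AP difference of the log2 ratio was 0.08 and 0.10 in the bone marrow samples and -0.26 and -0.14 in the sperm samples. In brain it was -0.04 and -0.03, in heart -0.03 and 0.02, in liver -0.02 and 0.06, and in PBMCs 0.03 and 0.03. This tissue pattern of the difference passed the exact permutation test over pairings (F = 10.4, p = 0.00645; without the Sfi1 window F = 8.91, p = 0.00596). Taken one tissue at a time against the other 10 libraries, sperm SSBs differed by -0.21 (p = 0.0152, the smallest that 2 against 10 allows, exact permutation) and bone marrow SSBs by 0.16 (p = 0.0303, exact permutation). Neither passed adjustment over 12 comparisons (adjusted p = 0.182, exact permutation).

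The sperm difference was spread over the chromosomes. The sperm SSB ratio was below the mean of the other tissues on 19 of 19 chromosomes, with a difference of -0.13 at the median and -0.60 on chromosome 19 (log2 scale), and the bone marrow ratio was above it on 14 of 19, most on chromosome 19 (0.47). For AP sites sperm was above the others on 10 of 19 chromosomes. The contrast of windows by gene content also varied with tissue in the same SSB libraries. Its part in the tissue difference of the ratio was not tested. In the end windows other than the Sfi1 window, those with at least 3 protein-coding genes were denser than those with none by 1.47 (log2) in bone marrow and by 0.88 in sperm. In the comparison region the same contrast was 1.33 and 0.69, and the other tissues lay between. For AP sites it ran from 0.84 in liver to 1.14 in bone marrow in the ends. The tissue difference of the SSB ratio passed the test both in windows without a gene (F = 15.4, p = 0.00135, exact permutation) and in windows with one (F = 20.7, p = 0.000866, exact permutation). Both are unplanned alternative settings with p-values that were not adjusted. Windows with a gene still differ in their number of protein-coding genes.

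Single windows were tested with edgeR's quasi-likelihood test across all autosomal windows with a mean of at least 5 positions, with Benjamini-Hochberg adjustment. For SSBs 516 of the 570 end windows passed the filter on counts, and 5 of them differed across tissues, beside 0.459% of all windows tested. For AP sites 0 of 544 end windows were called (0.0% of all windows; 22 at an unadjusted p under 0.05, and 0 with DESeq2). Of the 5 SSB windows, 3 lie on chromosome 19, and sperm had the lowest mean in 5 of the 5 and bone marrow the highest in 3. At chr19:5600001-5700000, which holds Rela (the p65 subunit of NF-kappaB) and Kat5 (a histone acetyltransferase), the bone marrow libraries had 157.4 and 155.3 SSB PPM and the sperm libraries 83.9 and 61.9 (adjusted p = 0.0171, edgeR). At chr19:4000001-4100000, with the glutathione transferase genes Gstp1, Gstp2 and Gstp3, liver had the highest mean (81.0 PPM) and sperm the lowest (31.7; adjusted p = 0.0284, edgeR). At chr11:4800001-4900000, with the tumour suppressor gene Nf2, bone marrow had 86.5 and 56.1 PPM and sperm 29.8 and 21.9 (adjusted p = 0.0427, edgeR). These calls did not hold under every setting: without bone marrow replicate 1, or with every library thinned to one depth, or with DESeq2, 0 end windows were called.

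Across windows the 2 lesion maps followed each other closely. Pearson's r of the mean SSB and AP densities was 0.996 over the 570 end windows and 0.966 without the Sfi1 window (Spearman's rho 0.975), as a description over windows that share libraries and base composition. It was 0.964 over the comparison windows. Against the share of the window covered by genes, Spearman's rho was 0.49 for SSBs and 0.47 for AP sites.

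**Figure D5:**
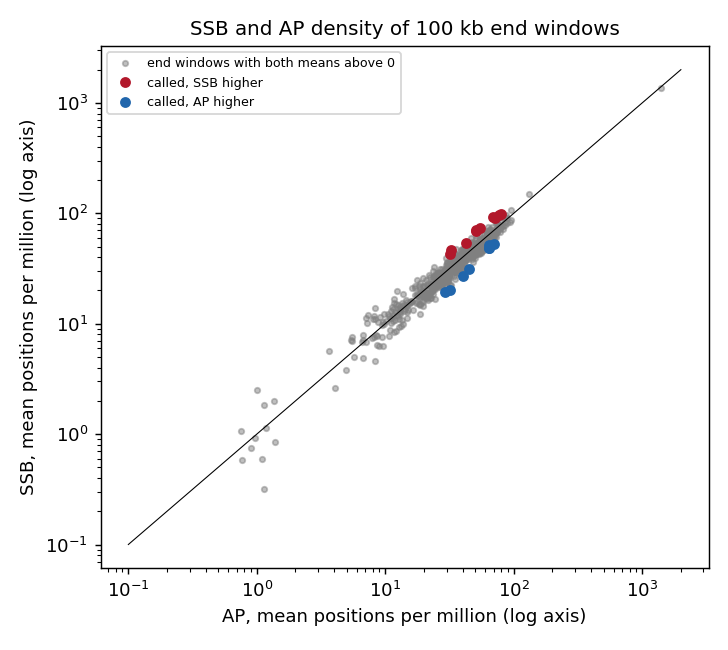
Mean SSB PPM (vertical, log axis) against mean AP PPM (horizontal, log axis) for end windows with both means above 0; the line marks equality, red points are the 10 windows called with SSBs higher and blue points the 8 called with AP sites higher. The windows follow the line, with the Sfi1 window alone at the upper right at 1363 SSB and 1396 AP PPM.

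Between the assays 18 of 536 end windows differed, 10 with more SSBs and 8 with more AP sites, beside 2.37% of all windows tested (1.53% with SSBs higher and 0.841% with AP sites higher; edgeR, with the tissue as a term). With DESeq2 the count was 4, all with SSBs higher, and without the heart libraries it was 0. Of the 10 windows with more SSBs, 5 lie on chromosome 7, 3 on chromosome 19 and 1 each on chromosomes 10 and 11. On chromosome 7 they include the 4 neighbouring windows of chr7:4700001-5100000. At chr7:5000001-5100000, a window with U2af2 (the large subunit of a splicing factor that reads the 3′ splice site) and Epn1 (epsin, of clathrin-coated pits), SSBs ranged from 69.2 to 121.9 PPM and AP sites from 52.4 to 92.9. The ranges overlapped, yet the SSB library was above the AP library in 12 of 12 DNA samples (log2 0.44 ± 0.10 SE, adjusted p = 0.00329, edgeR). At chr7:4900001-5000000 the means were 70.9 ± 17.8 and 50.4 ± 7.2 PPM (SD, n = 12), a log2 difference of 0.50 ± 0.11 SE (adjusted p = 0.00132, edgeR).

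The 8 windows with more AP sites overlap 0 to 2 protein-coding genes each. Among them, chr13:3000001-3100000 and chr8:3000001-3100000 are the first windows of their chromosomes and overlap no protein-coding gene. The former had 27.2 ± 11.4 SSB and 40.5 ± 9.3 AP PPM (log2 -0.56 ± 0.14 SE, adjusted p = 0.0108, edgeR), and in the latter the AP library was higher in all 12 DNA samples. At chr10:5000001-5100000, which overlaps Esr1 (the oestrogen receptor alpha) and Syne1 (nesprin-1, which ties the nuclear envelope to the cytoskeleton), AP sites were higher in 10 of 12 samples (log2 -0.42 ± 0.11 SE, adjusted p = 0.0207, edgeR). In no end window were the ranges of the 2 assays separate, and over all windows tested this was so for 0.017%. In end windows that overlap no gene the SSB ratio to comparison windows without a gene was below the AP ratio, by a log2 difference of -0.09 (p = 0.0179, exact permutation within tissues). In windows with a gene the difference was -0.01 (p = 0.643, exact permutation). Both are alternative settings of the main difference, which was not called. Their p-values were not adjusted, and the 2 sets of windows were not tested against each other.

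By chromosome, the SSB and AP ratios of the ends differed for 5 of 19 (adjusted p under 0.05, exact permutation within tissues). The AP ratio was higher on chromosome 4 (1.38 against 1.22, adjusted p = 0.00977), on chromosome 6 (1.43 against 1.34, adjusted p = 0.00977) and on chromosome 2 (1.13 against 1.07, adjusted p = 0.0258), all by exact permutation, and these 3 also passed with the DNA sample as a block. On chromosome 15 the AP ratio was higher (1.04 against 0.960, adjusted p = 0.0402, exact permutation) and on chromosome 8 the SSB ratio was (0.577 against 0.530, adjusted p = 0.0340, exact permutation). With the DNA sample as a block these 2 were no longer called (adjusted p = 0.0649 and 0.0668, exact sign-flip permutation).

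Whole genes were tested in the same way over all autosomal genes. Of the 1293 genes of the ends 381 passed the filter on counts, and 10 differed between the assays, 6 with more SSBs and 4 with more AP sites, beside 1.95% of all genes tested (1.02% and 0.935%). With only 1 replicate of each tissue kept, the calls fell to 2 without replicate 1 and to 0 without replicate 2, and over all genes they fell from 303 to 43 and 15. DESeq2 called 2, both with more AP sites, and 0 with more SSBs. It gave no adjusted p for 5 of the 9 called genes named here.

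The 5 genes with the smallest adjusted p among those with more SSBs were 10318 to 52457 bp long. Myadm (chr7:3289038-3299355, 10318 bp), a membrane protein first described in differentiating myeloid cells, had 0.571, 1.78 and 2.91 LPKM at the lowest, median and highest SSB library and 0.159, 0.524 and 0.856 in the AP libraries. The SSB library was higher in 11 of 12 DNA samples (log2 1.61 ± 0.27 SE, adjusted p = 9.39e-06, edgeR). By tissue its SSB mean was highest in PBMCs (2.55 LPKM) and bone marrow (2.22 LPKM) and lowest in brain (0.696 LPKM), the tissue in which the AP mean was highest (0.737 LPKM). These tissue means rest on few positions per library, since the gene is short, and they were not tested. U2af2 had 1.07 ± 0.32 LPKM for SSBs and 0.588 ± 0.218 for AP sites (log2 0.88 ± 0.21 SE, adjusted p = 0.00635, edgeR). Ssc5d, a scavenger receptor gene, had 0.909 ± 0.282 and 0.490 ± 0.187 LPKM (adjusted p = 0.0151, edgeR). For Sipa1, a Rap GTPase-activating protein, the values were 1.52 ± 1.15 and 0.860 ± 0.324 LPKM (adjusted p = 0.0239, edgeR), with bone marrow at 3.39 LPKM and sperm at 0.614 among the SSB means. The uncharacterised LOC102631992 had 0.830 ± 0.274 and 0.599 ± 0.104 LPKM (adjusted p = 0.0300, edgeR), a call lost with the DNA sample as a block (adjusted p = 0.0562, edgeR).

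Among genes with more AP sites were 2 of the 20 longest protein-coding genes of the ends. Frmd4a (chr2:4017650-4614043, 596394 bp), a scaffold protein of cell polarity and the longest gene of the ends, had 0.475, 0.569 and 0.707 LPKM at the lowest, median and highest SSB library and 0.597, 0.658 and 0.701 in the AP libraries. AP sites were higher in 11 of 12 samples (log2 -0.21 ± 0.05 SE, adjusted p = 0.0186, edgeR). Klhl29, a kelch-repeat protein, had 0.796 ± 0.074 and 0.917 ± 0.098 LPKM (log2 -0.23 ± 0.06 SE, adjusted p = 0.0234, edgeR). The predicted gene Gm9548 had 0.362 ± 0.071 and 0.458 ± 0.048 LPKM (adjusted p = 0.0169, edgeR). Tesmin, named for its expression in the testis, had 0.667 ± 0.359 and 1.10 ± 0.33 LPKM (adjusted p = 0.0495, edgeR), a call lost with the DNA sample as a block (adjusted p = 0.0547, edgeR).

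The other 18 of the 20 longest genes were not called, and their level per length varied far more between genes than between assays. Over the 20 the SSB level ran from 0.105 LPKM for Gucy1a2 (a subunit of soluble guanylate cyclase) through a median of 0.438 to 0.813 for Arid1b (a subunit of the BAF chromatin remodeller). For AP sites the same genes ran from 0.103 LPKM for Gucy1a2 through a median of 0.470 to 0.917 for Klhl29. Gucy1a2 and its neighbour Gria4 on chromosome 9 were both below these medians. Gria4, an AMPA glutamate receptor subunit, had 0.237 ± 0.032 LPKM for SSBs and 0.215 ± 0.038 for AP sites. The whole end of chromosome 9 was sparse, with a mean of 16.8 SSB and 16.1 AP PPM per 100 kb window. Esr1 had 0.430 ± 0.034 and 0.466 ± 0.049 LPKM, Syne1 0.442 ± 0.047 and 0.498 ± 0.052, and Cdk14, a cyclin-dependent kinase, 0.447 ± 0.056 and 0.474 ± 0.030. Ghr, the growth hormone receptor, had 0.350 ± 0.057 and 0.368 ± 0.046 LPKM. The median log2 difference between the assays was -0.07 over the 20 longest genes, -0.01 over the 301 protein-coding genes of the ends that were tested and -0.00057 over all genes tested.

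After the Sfi1 window and the first window of chromosome 17, which overlaps no protein-coding gene, the densest for SSBs included 2 neighbouring windows of chromosome 19. These, chr19:5600001-5700000 and chr19:5700001-5800000, had 98.8 ± 31.4 and 97.6 ± 25.6 PPM for SSBs and 79.2 ± 20.4 and 79.4 ± 17.1 PPM for AP sites (SD, n = 12). For AP sites the densest included 2 windows of the single gene Klhl29, chr12:5100001-5200000 and chr12:5200001-5300000, at 95.8 ± 17.7 and 94.0 ± 13.3 PPM, where SSBs stood at 86.3 ± 13.6 and 84.2 ± 11.4. None of these 4 windows but chr19:5600001-5700000 differed between the assays (log2 0.34 ± 0.10 SE, adjusted p = 0.0397, edgeR).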

How the data were processed

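SSiNGLe and SSiNGLe-AP libraries of 6 tissues were mapped and called by the authors, and the deposited files list each lesion as a single-nucleotide position of GRCm38 with its strand and its raw count of reads per position, not normalized. Each position was taken once, and positions were counted in 100 kb windows of chromosomes 1 to 19. Genes and promoters came from RefSeq tables on GRCm38.p6. The totals per library set the precision: 220728 to 1021522 autosomal positions in SSB libraries and 452686 to 946961 in AP libraries. The 12 RNA samples of the series were not used here.

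Samples were grouped by the labels. The labels name 2 mice and number the samples 1 and 2, but do not state that a number marks the same mouse in every tissue. P-values therefore measure the spread between libraries of 2 animals. Ratios were tested by exact permutation: sign flips over 12 libraries (4096 patterns), exchange of assay labels within tissues (46656) and all pairings of libraries, all two-sided or on F. Windows and genes with a mean of at least 5 positions were tested with the quasi-likelihood test of edgeR 4.0.16 (R 4.3.3; TMM, Benjamini-Hochberg adjustment, threshold 0.05), with DESeq2 1.42.0 as an alternative. Sums and figures used Python 3.11.15, numpy 2.4.6, pandas 2.3.3 and matplotlib 3.10.9. On simulated counts the test of SSB against AP recovered 95% of windows changed 1.5-fold, and the tissue tests recovered 3% (SSB) and 19% (AP). Changes were placed only in windows well above the filter of 5 positions, in sperm alone for the tissue tests, with a single dispersion. Recovery in sparser windows was not measured.

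The SSB and AP libraries of a tissue and replicate number share a DNA sample per the labels. Deviations from group means in windows correlated by -0.003 to 0.027 within such pairs and by -0.134 to 0.065 between tissues with the same number, so no pair exceeded 0.1. Named windows and genes were the 5 densest windows per assay, the 5 smallest adjusted p in each direction, up to 3 genes of each named window and the 20 longest protein-coding genes. The regions, lists and tests were chosen with earlier results of these data known. Alternatives were other comparison regions, filters, scalings, tools, depth thinned to equality and libraries, tissues or chromosomes left out. A window that the rule for named windows also picked is not reported here.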

Additional observations from a re-analysis of the deposited data

Results flagged for a closer look

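The SSB ratio of the ends to the comparison region differed across the 6 tissues (F = 24.3, p = 0.000289, exact permutation over pairings of the libraries). The SSB minus AP difference of that ratio also varied with tissue (F = 10.4, p = 0.00645, exact permutation), from a mean of 0.09 in bone marrow to -0.20 in sperm on the log2 scale. Sperm DNA was purified with another kit, which cannot be told apart from the cell type here.

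Differences between the assays were called for the ends of 5 chromosomes. The SSB minus AP difference (log2) was -0.079 on chromosome 2, -0.18 on chromosome 4, -0.095 on chromosome 6, 0.12 on chromosome 8 and -0.11 on chromosome 15, and those of chromosomes 8 and 15 were not called with the DNA sample as a block (adjusted p = 0.0668 and 0.0649, exact sign-flip permutation). In end windows without a gene, an alternative setting of the main difference, it was -0.086 (p = 0.0179, not adjusted, exact permutation within tissues).

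At promoters of the ends relative to their flanks, SSBs exceeded AP sites by 0.35 (log2) over all promoters and by 0.65 over CG-rich promoters (adjusted p = 0.00637 for both, exact permutation within tissues), in 10 and 11 of 12 DNA samples. Groups of 2 libraries, and of 12, were outside the sizes examined for single libraries that stand apart.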

How the results depend on the processing

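Of 216 alternative values of the main results, 170 kept their direction and side of the threshold. The SSB log2 ratio of the ends was 0.029 with the median over windows and 0.0071 without windows above 5 times the median, which is the Sfi1 window alone. It was -0.073 against 30 to 50 Mb and -0.067 as the mean of the chromosomes' own log2 ratios. With 1 chromosome left out it ran from -0.049 (without chromosome 11) to 0.17. Without chromosome 19 it was 0.049 (p = 0.0640, exact permutation). With 1 replicate number left out it was 0.090 to 0.10, and over tissue means 0.096 (p = 0.0625, exact permutation). Fewer samples were tested in both of these settings. The AP log2 ratio was 0.024 with the median, -0.047 against 30 to 50 Mb and -0.036 as the mean of the chromosomes' log2 ratios. It was -0.029 to 0.19 with 1 chromosome left out. The SSB minus AP difference turned to 0.0052 with the median and to 0.020 against 6 to 10 Mb, and in windows without a gene it was -0.086. Without the Sfi1 window, which was chosen after seeing the data like the alternatives that leave out a tissue, the difference between the ends and the comparison region was 0.0149 percentage points for SSB counts above 1 and 0.150 for the SSB share on the plus strand.

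End windows that differed across tissues for SSBs (5) numbered 2 without TMM, 0 with DESeq2, 8 with no filter, 2 at a mean of at least 10, 0 when thinned, 0 to 10 with 1 library left out and 8 with the replicate number as a block across tissues. The number is shared only as a number there, so this block says nothing of a pairing. End windows that differed between SSB and AP (18) numbered 4 with DESeq2, 0 when thinned, 0 to 1 with 1 replicate number left out, 14 with the DNA sample as a replicate block, and 5, 11, 0 and 7 without bone marrow, brain, heart and PBMCs. Genes (10) numbered 2 with DESeq2, 5 at a mean of at least 10 and 0 to 2 with 1 replicate number left out. The promoter difference was 0.32 to 0.39 with 1 replicate number left out (p = 0.0938 and 0.125, exact permutation). The cause was not tested beyond the smaller samples.

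Among 565 alternative values of single windows and genes, 411 kept direction and side of the threshold and 21 changed sign, none of them a called value. With 1 replicate number left out the log2 difference between the assays ran from -0.069 to 0.017 for the Sfi1 window, -0.39 to 0.069 for Rp1, -0.096 to 0.025 for Camk1d, -0.044 to 0.063 for Zfhx4, -0.041 to 0.027 for Ppp1r9a, -0.17 to 0.19 for Tmem150b, -0.26 to 0.38 for Gucy1a2, -0.10 to 0.056 for Ncoa1, -0.027 to 0.20 for Atad2b, -0.16 to 0.016 for Ghr, -0.20 to 0.086 for Zdhhc14, -0.024 to 0.54 for Pitpnm1 and -0.12 to 0.82 for Carns1. Fam71e2 had -0.077 without replicate 1 and gave no value without replicate 2. The Sfi1 window had 0.054 without sperm. Zfhx4 had 0.0096 without TMM, 0.00073 with DESeq2, 0.014 at a mean of at least 10 and 0.015 with the DNA sample as a block, and Ppp1r9a 0.0081 without TMM and 0.014 at a mean of at least 10.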
